A study of Mus musculus with 11 samples.

Results

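The mitochondrial ribosome translates the few messages encoded by mitochondrial DNA, all of them for subunits of the respiratory chain and the ATP synthase. Its ribosomal RNAs come from mitochondrial DNA, whereas its proteins are encoded in the nucleus, made in the cytosol and imported. The large subunit joins amino acids into a chain and feeds it toward the inner membrane, and the small subunit binds and decodes the message. A working ribosome forms when both subunits join on a message, and muscle fibres depend on its products for oxidative phosphorylation.

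The genes described here are the protein-coding genes with a symbol beginning Mrpl (large subunit) or Mrps (small subunit) and with at least 10 counts in all 11 libraries. Of 53465 genes in the table, 78 had such a symbol and biotype, and 77 passed the count minimum, 48 Mrpl genes of 49 and all 29 Mrps genes. RNA was sequenced from the quadriceps, a thigh muscle, of aged mice of the genotype written C57L/6JRj in the labels. Mice were 18 months old at the start and received the solvent DMSO (5 libraries) or Myriocin (6 libraries) for 10 weeks. Myriocin inhibits serine palmitoyltransferase, which starts de novo sphingolipid synthesis, and the comparison asks how muscle RNA differs with this inhibition. The sources used here give neither dose nor sex. The labels do not say whether libraries are from separate animals, so every p-value measures the spread between these libraries, which may be technical.

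Reads counted in genes ran from 22241131 to 23163721 per library, and the 77 genes held 0.2487% to 0.3191% of them. A single member had between 105 and 4618 counts in a library. Markers of the labelled tissue were abundant: 8 skeletal muscle fibre genes (Acta1, Ckm and others) summed to between 93050 and 126100 CPM, which are counts scaled to a gene total of 1e6 reads. The exception was Tnnc2, fast troponin C, with at most 1.818 CPM in a library, and whether so low a count reflects its RNA level was not tested. Heart markers summed to at most 20.73 CPM, with the atrial myosin light chain gene Myl7 at 0 counts in all libraries. For the subunits of the inhibited enzyme, log2 fold changes (myriocin minus DMSO) were 0.01 (SE 0.08) for Sptlc1 and 0.01 (SE 0.15) for Sptlc2.

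The 1 gene left out, Mrpl53 (ENSMUSG00000030037, chr6:83109040-83109939, plus strand), had 0 counts in all libraries. With 3 counts as the limit that a count of 0 allows, its level lay under 0.13 to 0.135 CPM, for counting error only. In the annotation, 88% of its exon bases are shared with another gene on the same strand, Gm42688, which itself had 2 to 6 counts per library. Reads falling in both genes may have been set aside as ambiguous, and this was not tested. A further 5 Mrpl or Mrps symbols belong to pseudogenes and were not included.

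Starts of these genes are shown first, because the genes lie on 17 chromosomes, 11 of them on chromosome 11 and 8 on chromosome 17, and their promoters are where a shared sequence could be sought. RefSeq windows on GRCm38.p6, from 250 bases before to 50 bases after a start, were available for 68 of the 77 genes (74 windows). Each window was searched on both strands for 4 words, of which the ETS and YY1 words can overlap, since the former ends and the latter begins with AAG. The first was CCGGAAG, a core bound by ETS factors such as GABPA, a known activator of nuclear genes for mitochondria. It occurred in 25 of 74 windows (33.8%), against 16.2% of 12923 windows of other tested protein-coding genes and 8.86% of all 32851 windows. The word GCGCATGC, bound by NRF1, occurred in 8 windows (10.8%), against 4.9% and 2.71%. The word AAGATGG, bound by YY1, occurred in 13 windows (17.6%), against 6.71% and 6.34%. The TATA box word TATAAA occurred in 5 windows (6.76%), against 7.48% and 13.6%. At least 1 of the first 3 words was present in 37 windows (50%), against 25.2% of the other tested windows. The median GC content was 58.5% in the members' windows and 60.7% in those of other tested genes.

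Of the members named below, 4 held an ETS, NRF1 or YY1 word in the last 60 bases before the RefSeq start. They were picked by that word, so its presence in all 4 follows from the choice. These bases are printed with the matched word in capitals, 5′ to 3′ on the gene's strand. Mrps18a had the second smallest p of the members and a lower level with myriocin, Mrpl34 the largest spread between libraries, and Mrps22 and Mrpl17 were among the few with a positive fold change. The word is that of ETS factors in Mrps18a, Mrpl34 and Mrps22, and that of NRF1 in Mrpl17.
Mrps18a, chr17:46110944-46111003, plus strand: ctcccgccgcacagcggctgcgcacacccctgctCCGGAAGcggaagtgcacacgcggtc
Mrpl34, chr8:71464866-71464925, plus strand: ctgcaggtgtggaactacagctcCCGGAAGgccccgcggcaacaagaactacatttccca
Mrps22, chr9:98601680-98601739, minus strand: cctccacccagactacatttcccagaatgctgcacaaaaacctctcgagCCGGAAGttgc
Mrpl17, chr7:105811088-105811147, minus strand: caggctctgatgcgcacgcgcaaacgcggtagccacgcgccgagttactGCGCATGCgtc
The ETS word begins 26 bases before the RefSeq start in Mrps18a, 37 in Mrpl34 and 11 in Mrps22, and the NRF1 word begins 11 bases before it in Mrpl17. GENCODE places the start of Mrps18a and of Mrpl17 earlier. There the last 18 printed bases of Mrps18a and the last 12 of Mrpl17 lie in exons, and those of Mrpl17 include the NRF1 word. A match describes letters only. The median log2 fold change was -0.07 in the 25 genes with the ETS word and -0.05 in the 43 without it, and genes with the word include Mrps18a, with a negative value, and Mrps22, with a positive one. For the NRF1 word the medians were -0.04 in 8 genes and -0.06 in 60, and for the YY1 word -0.06 in 13 and -0.06 in 55.

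Many of the starts also face another gene. For 33 of the 77 genes (42.9%) a protein-coding gene started within 1000 bases on the opposite strand, against 1947 of 12793 other tested protein-coding genes (15.2%). Partners included other genes of mitochondrial function: Mrpl47 faces Ndufb5 and Mrpl36 faces Ndufs6, both for complex I subunits, Mrps12 faces Sars2, a mitochondrial tRNA synthetase, and Mrpl43 faces Twnk, the mitochondrial DNA helicase. Mrpl46 and Mrps11, 1 gene of each subunit, face each other on chromosome 7 and share 173 exon bases. In all, 32 of the 77 genes had exon bases in common with another annotated gene, 27 of them on the opposite strand. The sources used here do not give the strand setting of the counting, so counts of such pairs may be mixed. The share was largest for Mrps25, with 69.8% of its exon bases inside those of Nr2c2, and for Mrps34, with 63.4% inside those of Mapk8ip3 and 37% inside those of Nme3.

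Levels per transcript length, in TPM (counts divided by the length of the principal transcript and scaled to a fixed sum), covered a wide range. They ran from 5.513 to 513.5 TPM with a median of 39.26 TPM. Large subunit genes had a median of 49.85 TPM and small subunit genes one of 23.61 TPM, and the ranges overlapped nearly throughout. The highest was Mrpl42, for a protein of the large subunit that bacteria lack, at 521 ± 51.7 TPM with DMSO (SD, n = 5) and 507.3 ± 30.6 TPM with myriocin (SD, n = 6). Mrps21, for a small subunit protein, followed at 299.4 ± 38.6 TPM and 274.5 ± 10.4 TPM. Next in order came Mrpl30, with 160.6 ± 15.3 TPM and 155.4 ± 12.7 TPM, and Mrpl2, for a protein beside the peptidyl transferase centre, with 146.8 ± 13.6 TPM and 135.1 ± 13.8 TPM. Mrpl30 and Mrpl2 did not differ beyond their spread, whereas Mrps21 and Mrpl42 stood apart from each other and from the rest.

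At the other end stood Mrpl19 with 5.541 ± 0.524 TPM with DMSO and 5.491 ± 0.311 TPM with myriocin, and Mrps25 with 6.086 ± 0.494 TPM and 5.849 ± 0.304 TPM, 2 neighbours that overlapped in mean and SD. Mrps35, at 7.757 ± 1.15 TPM and 7.468 ± 0.522 TPM, and Mrpl47, at 8.222 ± 0.706 TPM and 8.24 ± 0.71 TPM, overlapped as well. Mrpl19, Mrps25 and Mrpl47 are among the genes that share exon bases with a neighbour. The 10 highest genes were the same in both groups. The order depends on the length used: with the union of all annotated exons in place of the principal transcript, Mrpl42 came to 123.9 TPM, Mrps21 to 251.8 TPM, Mrpl30 to 63.23 TPM and Mrpl2 to 165.1 TPM, averaged over all libraries. With the principal transcript the values were 513.5, 285.8, 157.8 and 140.4 TPM. At the low end the union gave 6.744 TPM for Mrpl19, 7.339 for Mrps25, 4.889 for Mrps35 and 8.357 for Mrpl47. Mrpl33 came to 5.048 TPM with the union, against 57.99 TPM with the principal transcript.

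**Figure D1:**
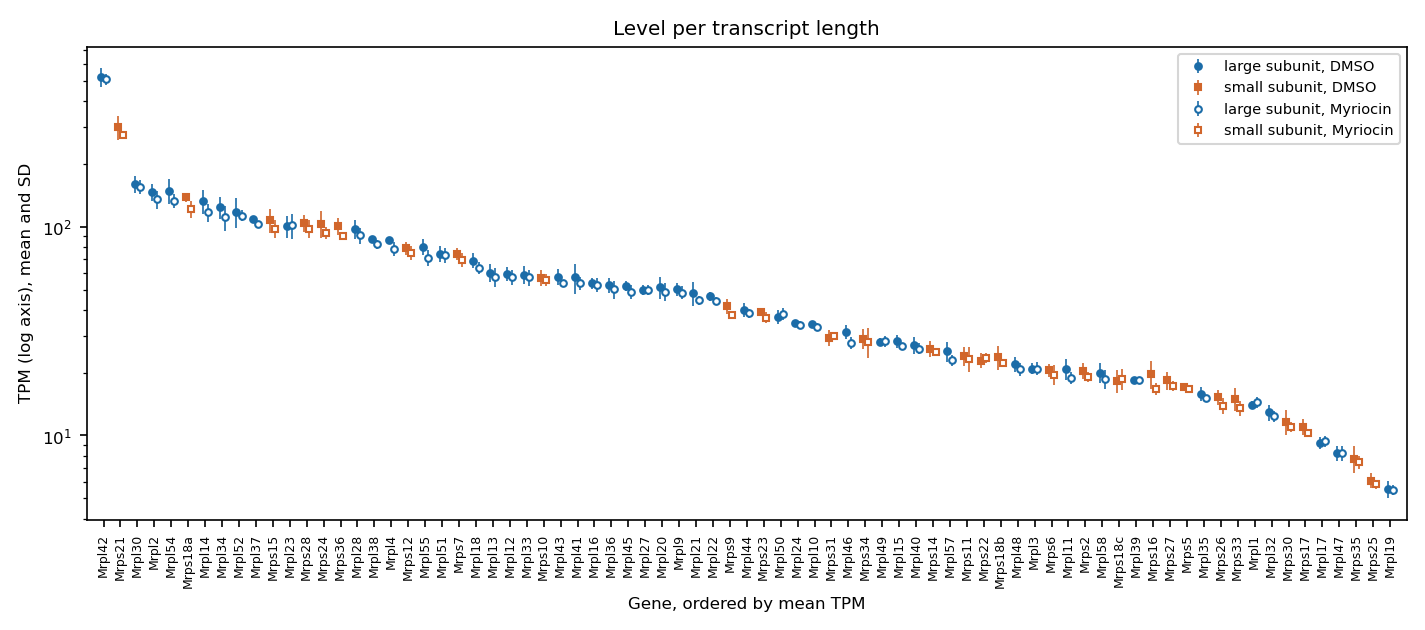
Level per length of each of the 77 genes in TPM (y axis, log scale), ordered by the mean over all libraries (x axis), with group means and SD for DMSO (filled, n = 5) and myriocin (open, n = 6), circles for the large and squares for the small subunit. Levels run from 5.513 to 513.5 TPM, and both groups lie close together at each gene.

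Some symbols do not tell where the protein sits. Mrps18a, Mrps18b and Mrps18c are paralogs of 1 bacterial protein, of which the product of Mrps18a is found in the large subunit and those of the other two in the small subunit. Mrps18a was the most abundant of the 3, at 129.1 TPM over all libraries, against 22.95 TPM for Mrps18b and 18.49 TPM for Mrps18c. With the union of exons as length the values came closer, at 41.25, 15.8 and 14.63 TPM. Mrps30 also encodes a large subunit protein, and its level was 11.65 ± 1.59 TPM with DMSO and 10.96 ± 0.582 TPM with myriocin. Mrps36 is now placed with the 2-oxoglutarate dehydrogenase complex of the citric acid cycle rather than with the ribosome, and its level was 100.3 ± 9.25 TPM with DMSO and 90.15 ± 3.92 TPM with myriocin. Where the subunits are compared below, values by structure move Mrps18a and Mrps30 to the large subunit and leave Mrps36 out.

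The clearest pattern in these genes lay between libraries, not between groups. In DMSO 5, 75 of the 77 genes were above their own median of the 11 libraries, and for 55 of them that library was the highest. The share of all tested genes with their highest level in DMSO 5 was not counted. DMSO 2 (66 of 77), Myriocin 4 (64) and DMSO 3 (60) were also mostly above the median. Over all tested genes the share above the median in these 4 libraries was 40.7%, 61.1%, 36.2% and 52%. The general shift was therefore upward in DMSO 2, where the median deviation of all tested genes was 0.09, and downward in DMSO 5 (-0.04) and Myriocin 4 (-0.07). In DMSO 4 only 5 members were above their median, followed by Myriocin 6 with 8, Myriocin 1 and Myriocin 3 with 12 each, Myriocin 2 with 22, DMSO 1 with 27 and Myriocin 5 with 34. High and low libraries thus occurred in both groups, and the DMSO group held both the highest and the library with the fewest genes above their median. The mean deviation of log2 CPM from the mean of the 11 libraries, over the 77 genes, was 0.24 in DMSO 5, 0.11 in DMSO 2, 0.10 in Myriocin 4 and 0.05 in DMSO 3. It was between -0.02 and -0.11 in the other 7. The 2 exceptions in DMSO 5 were Mrps22 and Mrps18b, the second of which had its lowest level there, 10.66 CPM.

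**Figure D2:**
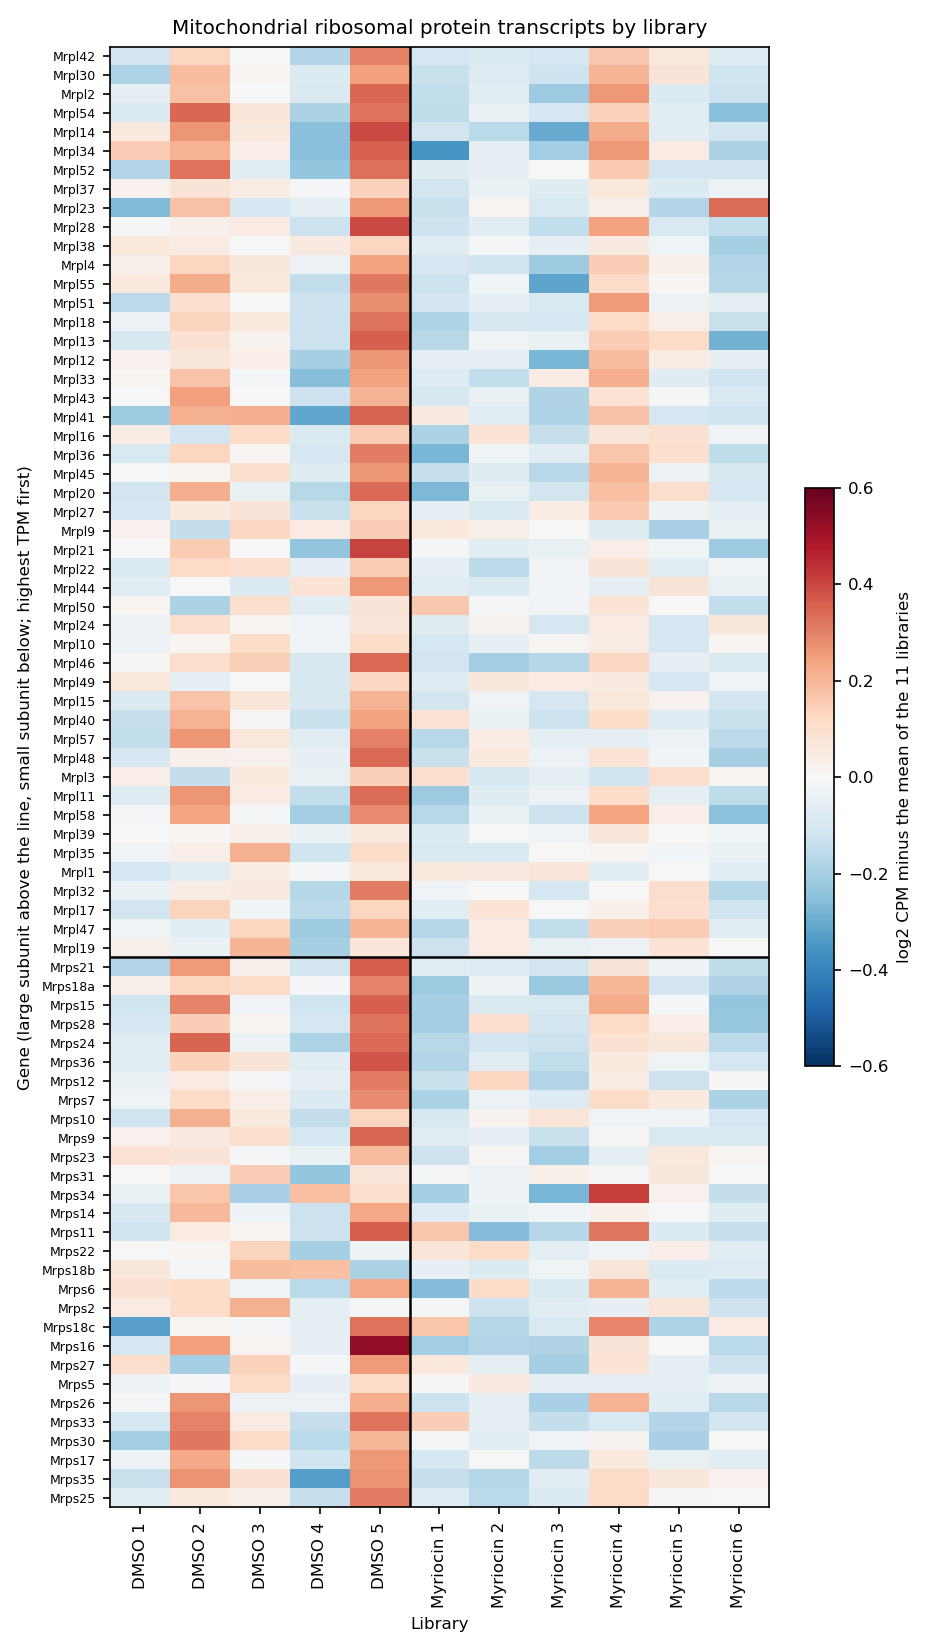
log2 CPM of each gene (rows, large subunit above the line, highest TPM first) minus its mean over the 11 libraries (columns, DMSO left and myriocin right of the line), red for higher and blue for lower. The column of DMSO 5 is red for nearly all rows, with 75 of 77 genes above their own median, while DMSO 4 is blue in most rows.

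The genes moved together in these shifts. The median SD of log2 CPM within groups was 0.14 for the members and 0.20 for all tested genes, whose median level was lower (7.14 TPM, against 39.26 TPM for the members). After the mean of the members in each library was subtracted, the median SD of the members was 0.09, and the SD became smaller for 59 of the 77 genes. No other gene set stands beside this value. Spread was largest for Mrpl34, with an SD of 0.22. In the DMSO libraries, in order of replicate, it stood at 38.41, 40.03, 35.57, 29.09 and 44.24 CPM, and with myriocin the lowest value was 27.11, the median 31.88 and the highest 41.46 CPM. The 2 lowest libraries, Myriocin 1 and DMSO 4, came from different groups, and the groups overlapped.

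Mrpl41 and Mrps11 had the next largest spread, with SDs of 0.22 and 0.21. Mrpl41 was at 18.1, 24.31, 24.42, 16.93 and 26.71 CPM in the DMSO libraries, and at 18.49 (lowest), 19.75 (median) and 23.72 CPM (highest) with myriocin. Its DMSO libraries fell into a low pair, 1 and 4, and 3 higher ones, with the myriocin libraries between. Mrps11 was at 11.25, 12.63, 12.34, 11.17 and 15.65 CPM in the DMSO libraries, and at 10.19, 11.32 and 15.2 CPM (lowest, median and highest) with myriocin. DMSO 5, Myriocin 4 and Myriocin 1 were its high libraries, so that each group held some.

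Between the groups, no member passed the test. With edgeR's quasi-likelihood test and Benjamini-Hochberg adjustment, 0 of the 77 genes had an adjusted p under 0.05, where 0 of all 14117 tested genes did (0%), and the smallest adjusted p of a member was 0.936 (0.391 to 1 over the alternatives). At an unadjusted p under 0.05 again 0 members were lower and 0 higher with myriocin, where 331 of all tested genes were lower (2.34%) and 329 higher (2.33%). Nor did the groups separate for any member: in 0 of 77 did all myriocin libraries lie below all DMSO libraries, which 76 of the tested genes did (0.538%), and in 0 did they all lie above, which 9 did (0.0638%). DESeq2, limma-voom and edgeR without robust estimation also called 0 members, with 0 at an unadjusted p under 0.05. Over all tested genes these tools called 6, 0 and 0, with 659, 660 and 667 at an unadjusted p under 0.05.

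The fold changes were small and mostly of 1 sign. The log2 fold change was negative for 64 of the 77 genes (83.1%), where it was negative for 53.7% of all tested genes. Its median was -0.06 over the members, with quartiles of -0.10 and -0.02 and extremes of -0.22 and 0.06, beside a median of -0.01 over all tested genes. The median SE of a single gene was 0.09, and the 95% interval of each of the 77 genes included 0 and stayed within 0.5 on the log2 scale. For 12 members (15.6%) the DMSO mean exceeded all 6 myriocin values, as for 1666 of all tested genes (11.8%), and for 0 it was under all 6, as for 252 (1.79%). Scaling by library totals alone in place of TMM gave negative values for 92.2% of the members and 64.7% of all tested genes.

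The lean depended on which libraries were kept. Without DMSO 5 the median log2 fold change of the members was 0.01, and 37 of 77 were negative (48.1%), where 53.3% of all tested genes were. Leaving out the 3 libraries that stood farthest out in an earlier analysis of these data (DMSO 2, DMSO 5 and Myriocin 4) gave a median of -0.002 with 41 of 77 negative (53.2%), beside 50.3% of all tested genes. Leaving out DMSO 5 together with DMSO 4 and Myriocin 4, the libraries with the most liver transcripts, left it in place, with a median of -0.05 and 59 of 77 negative (76.6%), beside 51.5% of all tested genes. Without Myriocin 4 the unadjusted p of 9 members (11.7%) was under 0.05, all of them lower with myriocin, and again 0 passed adjustment. Over all tested genes the share was 10.3%, with both directions counted, and the share lower with myriocin alone was not counted.

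**Figure D3:**
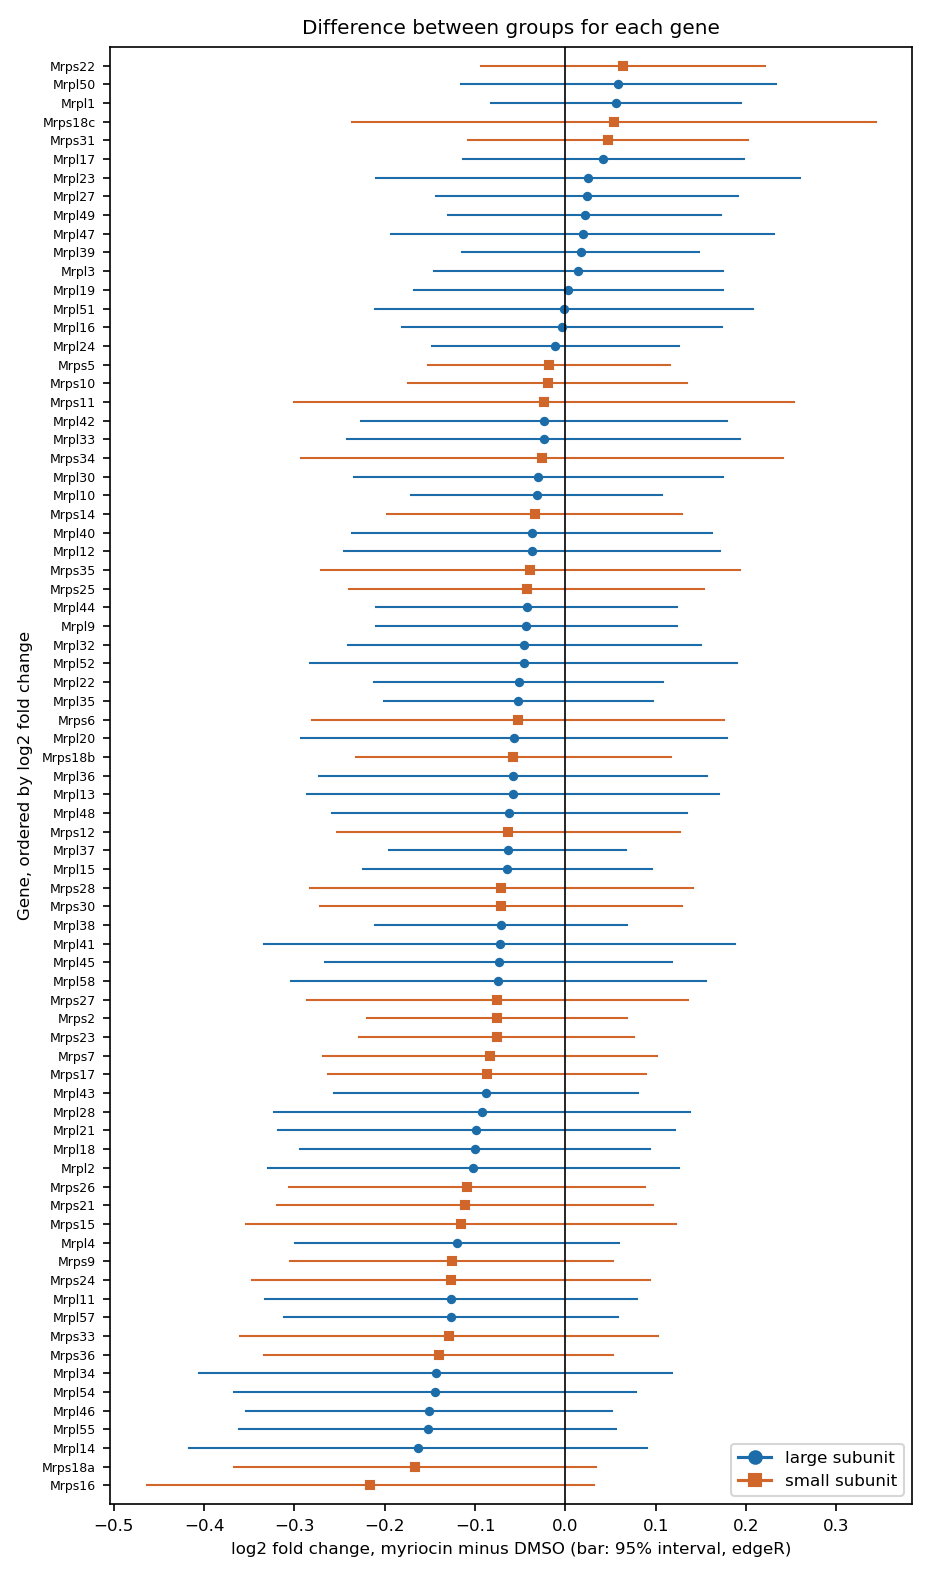
log2 fold change, myriocin minus DMSO (x axis), of each gene (y axis, ordered by it) with its 95% interval from edgeR, blue circles for the large and orange squares for the small subunit. All 77 intervals cross 0, and 64 of the 77 points lie to the left of it.

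Mrps16 (ENSMUSG00000049960, chr14:20389304-20393634 on GRCm38, minus strand), for a conserved protein of the small subunit body, had the smallest p of the members. Its DMSO libraries were at 21.09, 26.92, 23.01, 21.95 and 32.87 CPM, and with myriocin the lowest was 19.73, the median 20.22 and the highest 23.94 CPM. DMSO 5 was above the other ten libraries, 4 of the myriocin libraries lay below all DMSO libraries, and the groups overlapped through Myriocin 4 and Myriocin 5. The log2 fold change was -0.22 (SE 0.12, adjusted p = 0.936 with edgeR), and between -0.27 and -0.09 when 1 library at a time was left out.

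Mrps18a (ENSMUSG00000023967, chr17:46110986-46128910, plus strand) stood at 57.3, 61.29, 60.57, 55.58 and 68.75 CPM in the DMSO libraries and at 47.96 (lowest), 50.55 (median) and 64.35 CPM (highest) with myriocin. Apart from Myriocin 4, which was above all DMSO libraries but 1, its myriocin libraries lay below every DMSO library. The log2 fold change was -0.17 (SE 0.09, adjusted p = 0.936 with edgeR). Mrps36 stood at 31.16, 35.85, 34.43, 31.13 and 42.4 CPM with DMSO, and at 28.92, 30.77 and 33.95 CPM (lowest, median, highest) with myriocin, with DMSO 5 again the highest of all libraries. Its log2 fold change was -0.14 (SE 0.09), and -0.05 without DMSO 5. That of Mrps18a was -0.10 without DMSO 5 and -0.25 without Myriocin 4.

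Of the large subunit, Mrpl46 and Mrpl55, both for proteins that bacterial ribosomes lack, had the smallest p among genes with a negative value. Mrpl46 stood at 16.43, 17.6, 18.07, 15.32 and 20.68 CPM with DMSO, and at 14.19, 15.28 and 17.83 CPM (lowest, median, highest) with myriocin, for a log2 fold change of -0.15 (SE 0.09). Its head-to-head partner Mrps11 had a log2 fold change of -0.02 (SE 0.13). Mrpl55 stood at 36.08, 40.51, 36.19, 31.3 and 43.25 CPM with DMSO, and at 27.9, 32.91 and 37.55 CPM (lowest, median, highest) with myriocin, for a log2 fold change of -0.15 (SE 0.10). Without DMSO 5 these values were -0.07 for Mrpl46 and -0.08 for Mrpl55. In both genes DMSO 4 lay among the myriocin libraries and Myriocin 4 among the DMSO libraries.

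Only 13 genes had a positive value, and the largest was 0.06. Mrpl1, for the protein of the mobile L1 stalk that handles tRNA leaving the ribosome, stood at 23.2, 23.83, 25.7, 24.76 and 25.99 CPM with DMSO, and at 23.75, 25.39 and 26.19 CPM (lowest, median, highest) with myriocin. It had the smallest spread of the members named here, an SD of 0.07 in log2 CPM, and a log2 fold change of 0.06 (SE 0.06). Mrps22, for a small subunit protein without a bacterial counterpart, stood at 13.71, 13.81, 15.03, 11.9 and 13.4 CPM with DMSO and at 13.04, 13.77 and 14.8 CPM with myriocin, for a log2 fold change of 0.06 (SE 0.07). DMSO 4 was its lowest library and DMSO 3 its highest, so the DMSO group spanned the myriocin group. Mrpl50, Mrps31 and Mrpl17 had log2 fold changes of 0.06 (SE 0.08), 0.05 (SE 0.07) and 0.04 (SE 0.07), with overlapping groups in each. With 1 library left out these ran from 0.002 to 0.094, from 0.0 to 0.086 and from 0.009 to 0.09.

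In the main analysis the other 2 Mrps18 paralogs and Mrps30 had smaller log2 fold changes in size than Mrps18a, but this depended on the libraries for Mrps18b. Without the 3 farthest libraries Mrps18b was at -0.188, beside -0.177 for Mrps18a and 0.107 for Mrps18c. Mrps18b stood at 12.74, 12.11, 13.84, 13.77 and 10.66 CPM with DMSO and at 11.48, 11.62 and 12.78 CPM (lowest, median, highest) with myriocin, for a log2 fold change of -0.06 (SE 0.08). Mrps18c stood at 4.614, 5.837, 5.731, 5.541 and 7.239 CPM with DMSO and at 5.089, 5.696 and 7.072 CPM with myriocin, for a log2 fold change of 0.05 (SE 0.14), whose sign turned without DMSO 1 or Myriocin 4. Of Mrps18b, 30.5% of the exon bases overlap an antisense gene, Gm16279. Mrps30 stood at 15.91, 22.87, 19.84, 16.41 and 21.09 CPM with DMSO and at 16.05, 18.16 and 18.62 CPM with myriocin, for a log2 fold change of -0.07 (SE 0.09) that was 0.05 without the 3 farthest libraries. The difference between the paralogs' fold changes was not tested.

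The subunits moved in step. The mean log2 CPM of the large subunit genes was 5.081 ± 0.136 with DMSO (SD, n = 5) and 4.997 ± 0.078 with myriocin (SD, n = 6), with libraries from 4.92 to 5.27 and from 4.94 to 5.14. For the small subunit it was 4.597 ± 0.135 and 4.496 ± 0.073, with libraries from 4.45 to 4.78 and from 4.43 to 4.63. The difference between the group means was smaller than the SD of the DMSO libraries in both subunits, and the groups overlapped. The large minus small difference within a library was far tighter, at 0.48 ± 0.02 with DMSO and 0.50 ± 0.02 with myriocin, and its libraries lay between 0.46 and 0.50 and between 0.47 and 0.52. With the subunits by structure it was 0.54 ± 0.02 and 0.55 ± 0.02. DMSO 5, the highest library of both subunits, had a difference of 0.50, within the range of the other libraries.

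By fold change, 38 of 48 large subunit genes (79.2%) and 26 of 29 small subunit genes (89.7%) were negative, with medians of -0.05 and -0.07. By structure the medians were -0.05 over 50 genes and -0.07 over 26. The large minus small difference in the medians was 0.019 and fell between 0.001 and 0.035 over the alternatives.

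**Figure D4:**
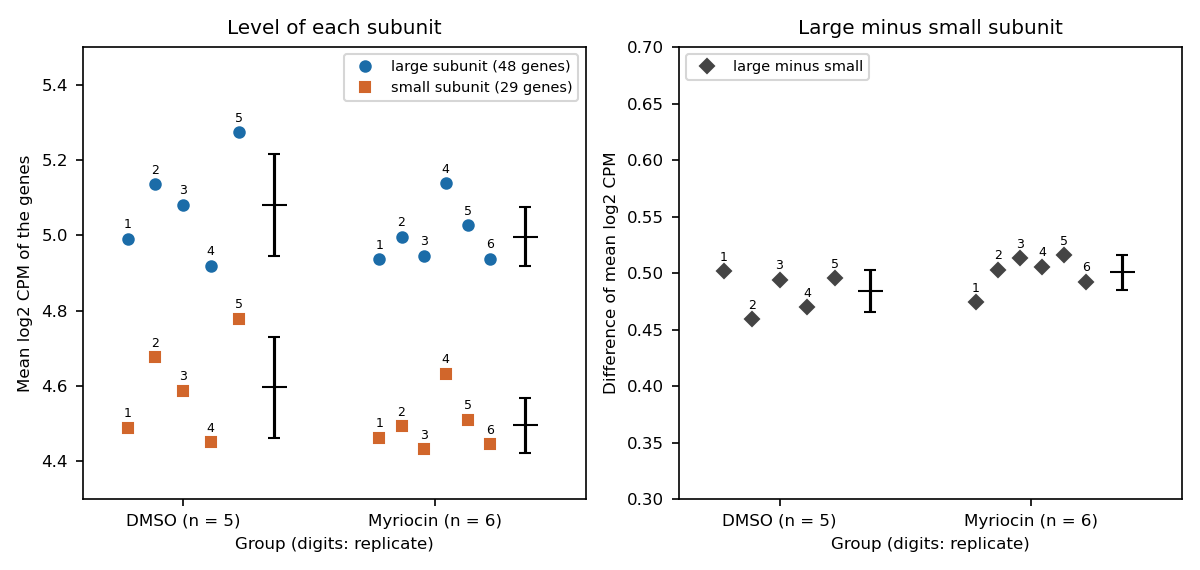
Left, mean log2 CPM of the 48 large subunit genes (circles) and the 29 small subunit genes (squares) in each library, and right, the large minus small difference (diamonds), by group (x axis). Digits give the replicate, and the black bars give mean and SD (n = 5 and 6). Levels span 4.92 to 5.27 in the DMSO large subunit, while the differences stay between 0.46 and 0.52.

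Transcript length went with the sign of the fold change in protein-coding genes outside the members and in the large subunit, but not in the small subunit. The members had a median transcript length of 1316 bases, against 3055 over all tested protein-coding genes. Up to that length, 35 of 39 members and 1000 of 1361 other protein-coding genes (73.5%) had a negative fold change, with medians of -0.06 and -0.07. Above it, 29 of 38 members and 5943 of 11432 others (52%) did, with medians of -0.05 and -0.01. By subunit, 22 of 24 genes up to that length and 16 of 24 above it were negative in the large subunit. In the small subunit 13 of 15 and 13 of 14 were. After the trend over length in the other protein-coding genes was subtracted, the median of the members was -0.018, with -0.002 for the large and -0.037 for the small subunit. The other short genes also had their high levels in DMSO 2 (mean deviation 0.27), DMSO 5 (0.16) and Myriocin 4 (0.10), and low ones in Myriocin 3 (-0.13) and DMSO 1 (-0.11).

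Other gene groups stood beside the members in the same libraries. A list of 38 genes with a symbol of complex I subunits was taken without Ndufa4, now placed in complex IV, and its paralog Ndufa4l2. The remaining 36, whose products assemble with mitochondrially made partners, had mean deviations of 0.37 in DMSO 5 and 0.14 in Myriocin 4, and of -0.17 in Myriocin 3 and -0.18 in DMSO 4. Their log2 fold change was negative in 34 of 36, with a median of -0.07. The 76 tested cytosolic ribosomal protein genes were highest in DMSO 2 (0.46), then DMSO 5 (0.22) and Myriocin 4 (0.19), and 74 of them were negative with a median of -0.09. The mitochondrial ribosome reads the messages of 13 mitochondrially encoded protein genes, of which 7 had a mean above 1000 CPM. These 7 had mean deviations of 0.33 in DMSO 1, 0.27 in DMSO 3, 0.04 in DMSO 5 and -0.30 in Myriocin 4, another order than that of the members, and 6 of them were negative, with a median of -0.09. The other 6 (mt-Atp6, mt-Atp8, mt-Co2, mt-Co3, mt-Nd3 and mt-Nd4l) had few counts, at most 16.44 CPM in a library, and 5 of them were positive. Their median level was 23.69 TPM, against 2.09e+04 TPM for the 7 abundant genes. Whether such counts reflect the level of these RNAs was not tested, and their signs carry the same limit. No gene of these 3 groups passed the adjusted threshold.

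**Figure D5:**
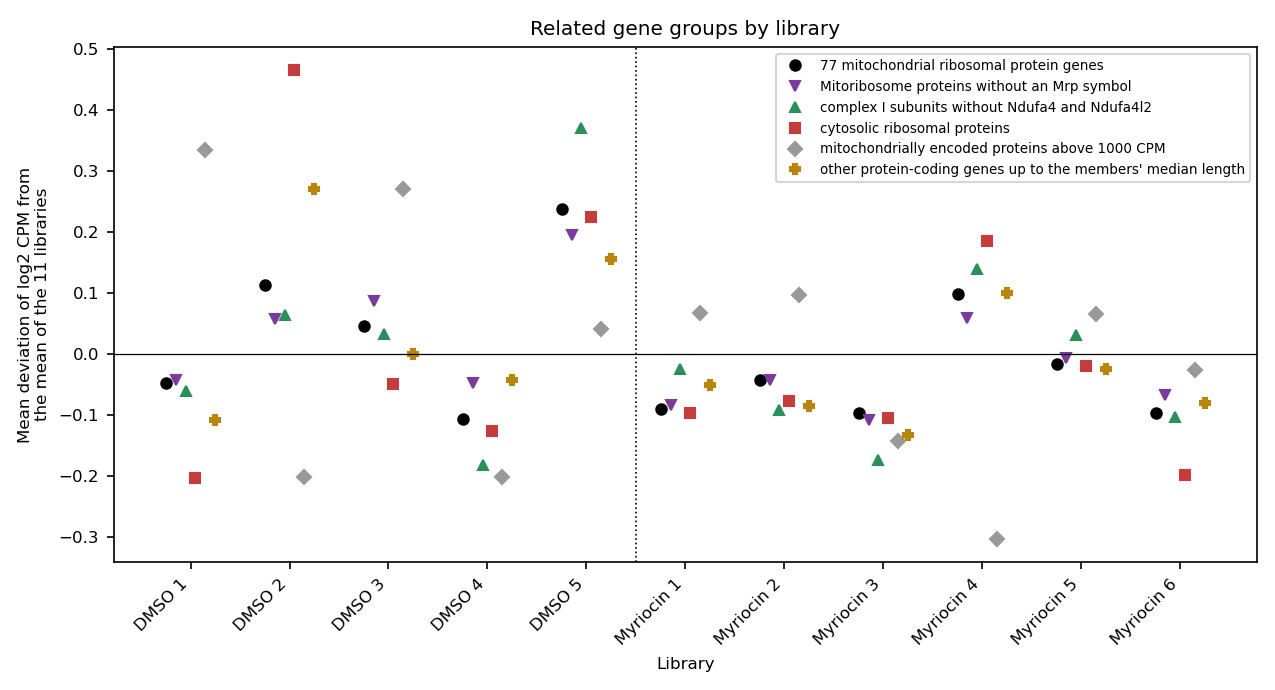
Mean deviation of log2 CPM from the mean of the 11 libraries (y axis) for the 77 members and 5 other gene groups in each library (x axis, DMSO left and myriocin right of the dotted line). The members (black) are at 0.24 in DMSO 5, with complex I subunits at 0.37 above them and the 7 abundant mitochondrially encoded proteins at 0.04 below.

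The partners of the mitochondrial ribosome were counted from lists by function. Of 6 proteins bound to it that lack an Mrp symbol, 5 were negative and 1 positive, with a median log2 fold change of -0.04, and 0 passed the test. The smallest p-values were those of Aurkaip1, a small subunit protein, with 58.31 ± 8.01 CPM (SD, n = 5) and 50.58 ± 4.31 CPM (SD, n = 6) and a log2 fold change of -0.17 (SE 0.09), and Gadd45gip1, a large subunit protein, at -0.18 (SE 0.12). In both, the group means differed by less than the SD of the DMSO libraries. The 2 ribosomal RNAs of the particle, mt-Rnr1 and mt-Rnr2, had log2 fold changes of -0.21 (SE 0.15) and -0.14 (SE 0.13), and the mitochondrial valine tRNA gene mt-Tv had 0 counts in all libraries. Whether the count of mt-Tv reflects its RNA level was not tested. The mean deviation of the 2 ribosomal RNAs in DMSO 5 was 0.61.

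Factors that start, extend and end mitochondrial translation leaned to neither side. Of 16 such genes 14 were tested, with 7 negative and 7 positive, a median of -0.002 and 0 that passed. Rmnd1, which anchors the ribosome near the site where messages mature, had a log2 fold change of -0.17 (SE 0.08), and Tsfm, the exchange factor of the elongation factor Tu, one of -0.13 (SE 0.08). Of 26 tested genes for assembly of the ribosome and modification of its RNA, 14 were negative and 12 positive, with a median of -0.01 and 0 that passed. Mrm1, a methyltransferase of the large ribosomal RNA, was at -0.22 (SE 0.12), and Mtg2, a GTPase of large subunit assembly, at -0.12 (SE 0.07).

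The mitochondrial aminoacyl tRNA synthetases and their helpers, which charge the tRNAs, comprised 22 tested genes, 14 negative and 8 positive, with a median of -0.03 and 0 that passed. The genes with the smallest p had opposite signs: Aars2, for alanine, at -0.18 (SE 0.07), and Nars2, for asparagine, at 0.24 (SE 0.11). Of the 7 genes for transcription and replication of mitochondrial DNA, 5 were negative, with a median of -0.05 and 0 that passed. Polrmt, the mitochondrial RNA polymerase, was at -0.05 (SE 0.06), and Mterf1a, a termination factor with at most 1.006 CPM in a library, at -0.32 (SE 0.26). Of 9 regulators of mitochondrial biogenesis 7 were negative, with a median of -0.03 and 0 that passed, and the smallest p-values were those of Esrra, a nuclear receptor that drives oxidative genes, at -0.13 (SE 0.10), and Myc, at -0.23 (SE 0.20).

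Markers of other cell types also varied between libraries, and fewer cells of a type cannot be told apart from less RNA per cell in bulk muscle. Summed hepatocyte markers (7 genes, 6 of them tested, none at 0 throughout) ranged from 6.055 to 115.7 CPM with DMSO and from 6.691 to 120.7 CPM with myriocin. They were high in DMSO 5 (98.47 CPM) and Myriocin 4 (120.7 CPM), where the members were high, and in DMSO 4 (115.7 CPM), where only 5 members were above their median. Summed neutrophil markers (5 genes, 3 of them tested) ranged from 0.405 to 832.1 CPM with DMSO, the highest in DMSO 2, and from 0.432 to 113 CPM with myriocin.

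Slow and oxidative fibre markers (8 genes, 8 tested, 6 negative) ranged from 1271 to 2695 CPM with DMSO and from 427.9 to 2285 CPM with myriocin, with the lowest sum in Myriocin 3 and the highest in DMSO 2. In DMSO 5 they summed to 1678 CPM, below DMSO 1, 2 and 3. Adipocyte markers (6 genes) summed to 420.5 CPM in DMSO 2 and to between 40.78 and 142 CPM elsewhere. Endothelial markers (7 genes, all tested and all 7 negative, median log2 fold change -0.15) summed to between 287.5 and 333.2 CPM with DMSO and between 226.6 and 317.7 CPM with myriocin. Like the members they were highest in DMSO 5 (mean deviation 0.27), and they were lowest in Myriocin 3 (-0.37), but unlike them they were not raised in Myriocin 4 (-0.06). Skeletal muscle fibre markers had their highest mean deviations in DMSO 5 (0.17) and Myriocin 4 (0.10). Next came DMSO 4 (0.08), where the members were low. The fibre markers had negative ones in DMSO 2 (-0.09) and DMSO 3 (-0.05), where the members were high. Summed heart markers were highest in DMSO 5 (20.73 CPM), then in Myriocin 1 (15.93 CPM), where the members were low. The part of these cell types in the levels of the members was not tested.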

How the data were processed

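Total RNA was isolated with a Direct-zol kit and sequenced with DNBseq, per the labels' protocols. The authors deposited raw counts per Ensembl gene for 11 libraries. The submitters' processing notes name GRCm38, the aligner STAR (2.5.2b) and the counter HTSeq (0.6.0). Strand setting and annotation release were not given in the sources used. Lines of the table that name no gene held 24.8% to 28.2% of reads and were left out. Symbols, positions and transcript lengths came from GENCODE M21 (GRCm38), to which 53360 of 53465 genes matched, and promoter sequences from RefSeq (GRCm38.p6).

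CPM were calculated from gene totals, TPM with the longest APPRIS principal transcript, and log2 CPM with 0.5 counts added. All 14117 genes passing filterByExpr (minimum count 10, minimum total 15) were tested together in edgeR 4.0.16 (R 4.3.3) with TMM scaling and the quasi-likelihood test with robust estimation, treatment as the only factor, all 11 libraries, Benjamini-Hochberg adjustment and a threshold of 0.05. SE and 95% intervals of log2 fold changes come from that test, which was checked on simulated counts. The limit set by a count of 0 covers counting error only. Alternatives were DESeq2 1.42.0, limma 3.58.1, other scalings and filters, and leaving out libraries; handling of transcript length and the trimmed complex I and mitochondrially encoded lists were added after the data were seen. No 2 libraries of a group were copies (chi-square per degree of freedom at least 8.91).

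Named genes were the 5 members of smallest p in each direction, the 4 with the highest and the 4 with the lowest TPM, the 3 with the largest spread within groups, Mrps18a, Mrps18b, Mrps18c, Mrps30, Mrps36, the member not kept, and the 2 genes of smallest p in each pathway list. The members and lists were chosen with earlier results of these data known.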

Additional observations from a re-analysis of the deposited data

Results flagged for a closer look

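Levels in CPM of the named members, among other values, were screened for libraries far from the rest of their group. The screen covered 58 group values in all, of which chance alone picks out about 1 in 20. Mrpl2 was at 85.17 CPM in Myriocin 4, with the other myriocin libraries between 60.99 and 68.04 CPM (gap over range 0.709, against a critical value of 0.625 for 6 libraries). Mrps18b was at 12.78 CPM in Myriocin 4, with the others between 11.48 and 11.94 CPM (gap over range 0.651). Both were high in the library in which 64 of the 77 genes lay above their median.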

How the results depend on the processing

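The count of members with an adjusted p under 0.05 was 0 in all 25 alternatives run for it. Among these, leaving out members with exon overlap and placing subunits by structure only regroup the main fit, so their 0 was fixed by it. Members with an unadjusted p under 0.05 numbered 0 in the main analysis, 3 with library totals only (Mrpl46, Mrps16 and Mrps18a), 4 without the 3 libraries with liver transcripts (Mrpl14, Mrpl34, Mrpl55 and Mrps18a), 2 without the 3 farthest libraries (Mrps18a and Mrps18b), and between 0 and 9 when 1 library was left out (9 without Myriocin 4, 2 without DMSO 1), all lower with myriocin. Over all tested genes the shares under that p, with both directions counted, were 4.68%, 5.6%, 7.12%, 7.97%, 10.3% and 4.88% in the same order. The members' shares, which held only genes lower with myriocin, were 0%, 3.9%, 5.19%, 2.6%, 11.7% and 2.6%. With 1 library left out, the median log2 fold change lay between -0.098 and 0.012 over all members and between -0.097 and 0.023 over the large subunit, both positive without DMSO 5. The large minus small difference lay between 0.001 (without DMSO 1) and 0.033, and was 0.001 without the 3 farthest libraries. Without those libraries the log2 fold changes of Mrpl41, Mrps11 and Mrps30 turned to 0.023, 0.008 and 0.045. With 1 library left out they lay between -0.151 and 0.02 for Mrpl41, -0.112 and 0.081 for Mrps11, and -0.019 and 0.16 for Mrps18c. The causes were not tested. Replicate numbers were shared by both groups without a stated meaning, and same-numbered libraries did not deviate together (correlations from -0.132 to 0.0866, 0 of 5 best with their own number). With a replicate block over the 10 libraries whose number occurs in both groups, 0 members passed and the median was -0.037. The median 95% interval of a member reached 0.20 to either side on the log2 scale.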
